A study of Mus musculus with 6 samples.

Results

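The genes described here build and start the machine that unwinds DNA for replication. They are the 6 subunits of the MCM ring (Mcm2, Mcm3, Mcm4, Mcm5, Mcm6 and Mcm7), the loading factors Cdt1 and Cdc6, and the activation factors Cdc45 and Mcm10. The list is a list of names and its rule uses no measured value. All 10 were found among the 55378 genes of the deposited table and passed the filter on low counts. In mouse embryos injected with an siRNA against Eif4a3, the mean level of all 10 was below that of control embryos, and 8 of the 10 fell by the test across all genes. None rose. Across all genes tested, 5.56% fell, 7.52% rose and 13.1% changed in either direction. Mcm7 and Cdt1 did not pass, and in both of them 1 knockdown library lay within the range of the controls.

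In every cell cycle, before DNA synthesis begins, the origin recognition complex (ORC) with Cdc6 and Cdt1 loads MCM rings onto DNA, which is called licensing. The rings are inactive until kinases, Cdc45, the GINS complex and Mcm10 turn them into moving helicases at the start of S phase, and geminin then blocks Cdt1 so that no origin is licensed again. Early embryos license their origins anew in each cycle, and the genes of the MCM ring are textbook targets of the E2F transcription factors.

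The study lowered Eif4a3, the RNA helicase of the exon junction complex that is deposited on spliced mRNA, and asked what followed in the early embryo. Zygotes were injected with a control siRNA (siRNA-NC, the NC group) or with siRNA-Eif4a3 (the Eif4a3-KD group, called the knockdown), and the embryos were harvested on day 5, at a stage the labels name blastocyst. Each group had 3 Smart-seq2 libraries, and each library pooled 5 embryos. The sources used here give neither the mouse strain nor the siRNA sequences, and nothing in them says that the pools had separate parents, so p-values measure only the spread between these libraries. A pool averages its embryos, and in whole embryos fewer cells of a type and less RNA per cell cannot be told apart.

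Libraries summed to between 15607227 and 18697754 counts over merged exon blocks (overlapping exons of a gene joined into 1). Values per library are CPM (counts scaled to a fixed library size) on edgeR's TMM scale. Eif4a3 was at 16.03, 36.2 and 56.2 CPM in knockdown replicates 1, 2 and 3, which is 6.33%, 14.3% and 22.2% of the NC mean. This order comes from the last 3 of its 11 exon blocks (block 10: 3.70, 14.8 and 21.4 CPM). In blocks 1 to 8, replicate 2 was lowest (block 7: 1.64, 0.727 and 1.56 CPM), so the libraries cannot be ranked by how much Eif4a3 was left. Of 6 tested markers of trophectoderm, the outer layer of the blastocyst, 3 fell, and of the markers of the inner cell mass 2 of 6 and of the primitive endoderm 2 of 4 fell. All 7 transcripts typical of the 2-cell stage rose, from a summed 0.459 to 0.647 CPM in the NC libraries to between 52.7 and 229 CPM in the knockdown. Among 6 markers of cycling cells, Mki67 and Top2a fell and the other 4 did not pass. Ccnb1 was at 768 CPM in the controls and 760.4 CPM with the knockdown. The log2 fold changes of Cdk1, Aurka and Plk1 were -0.41, -0.77 and -0.89. The cumulus markers Has2, Ptx3, Tnfaip6 and Amh were at 0 in every library. The markers for sperm summed to at most 2.59 CPM, those for fibroblasts to at most 12.7 CPM and those for blood to between 38.8 and 108 CPM, of which Cd68 made 23.2 to 103 CPM. The globins Hbb-bs (5.502 to 0.369 CPM, adjusted p 0.0132 by edgeR) and Hbb-bt (2.78 to 0.25 CPM, adjusted p 0.0239 by edgeR) fell. Of 3 tested oocyte transcripts Ooep fell (93.3 to 26.9 CPM), Oosp1 rose (0 in every NC library, 0.609 to 1.57 CPM in the knockdown) and Zp3 did not pass. The part of any of these in the results below was not tested.

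Sequence at the start sites is shown first, to let the members be compared by the words of the kind E2F proteins bind. No binding or promoter activity was measured. The words TTTCGCGC, TTTGGCGC, TTTCCCGC and TTTGCCGC were searched on both strands, with overlapping matches counted separately, in RefSeq windows (GRCm38.p6) running from 250 bases before to 50 bases after each start site. The table holds windows for 9 of the 10 members, and Mcm4 has no entry. At least 1 of the words stood in the windows of 6 of these 9 members, Mcm3, Mcm5, Mcm6, Mcm7, Cdt1 and Cdc6. None stood in those of Mcm2, Mcm10 and Cdc45. The Cdc6 window belongs to a start site whose exon block held almost no counts (0.0497 CPM in NC replicate 1 and 0 in every other library). Of all 27025 genes with a window, 704 (2.605%) held such a word, and of 64 genes of the pathway lists described further on, 17 (26.56%) did. The 250 bases before the start sites of Mcm5 (chr8:75109259-75109508, plus strand) and Mcm6 (chr1:128359706-128359955, minus strand) are printed because each carries overlapping matches on both strands. In them the E2F-type words and CCAAT, the word bound by the factor NF-Y, are in capitals on either strand. In both genes a run of 12 capitals holds 2 overlapping matches, 1 on each strand.
Mcm5: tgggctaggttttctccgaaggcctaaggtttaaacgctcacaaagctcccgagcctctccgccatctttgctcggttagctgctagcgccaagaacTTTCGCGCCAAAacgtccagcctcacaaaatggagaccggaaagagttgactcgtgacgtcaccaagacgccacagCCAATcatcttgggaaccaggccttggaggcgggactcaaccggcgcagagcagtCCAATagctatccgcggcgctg
Mcm6: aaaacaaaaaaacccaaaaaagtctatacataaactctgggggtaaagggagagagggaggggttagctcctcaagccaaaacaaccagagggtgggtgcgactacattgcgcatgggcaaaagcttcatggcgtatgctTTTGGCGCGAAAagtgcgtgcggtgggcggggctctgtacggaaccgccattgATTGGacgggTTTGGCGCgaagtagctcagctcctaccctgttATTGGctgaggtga

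Further matches are shown with 30 bases around each, E2F-type words in capitals, so that the word on either strand can be compared between a ring subunit, the loading factors and an ORC subunit. They lie at chr1:20820263-20820292 (Mcm3, minus strand), chr5:138171849-138171878 (Mcm7, minus strand), chr8:122568035-122568064 (Cdt1, plus strand), chr11:98908002-98908031 (Cdc6, plus strand) and chr4:108579416-108579445 (Orc1, plus strand). The stretch of Mcm3 begins inside a further match on the opposite strand. The stretches of Mcm3, Mcm7 and Cdt1 lie after the start site, inside exon block 1 of their gene. The Orc1 stretch lies before its start site. The Cdc6 stretch lies before the start site of its window but after exon block 1 of that gene (chr11:98907801-98907981). That block held 3.03, 3.52 and 3.74 CPM in the NC libraries.
Mcm3: CGGGAAAacttgggaagtTTTGGCGCcaag
Mcm7: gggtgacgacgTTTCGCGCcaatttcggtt
Cdt1: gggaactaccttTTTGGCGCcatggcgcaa
Cdc6: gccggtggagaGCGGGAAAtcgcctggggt
Orc1: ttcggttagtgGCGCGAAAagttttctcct
A match describes these letters only. Among the genes with a match, Mcm3, Mcm5, Mcm6 and Cdc6 fell, and Mcm7, Cdt1 and Orc1 did not pass. Mcm2, Mcm10 and Cdc45 hold none and fell. CCAAT was in the windows of 7 of the 9 members and of 41.06% of all genes, so a match to it is common.

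**Figure D1:**
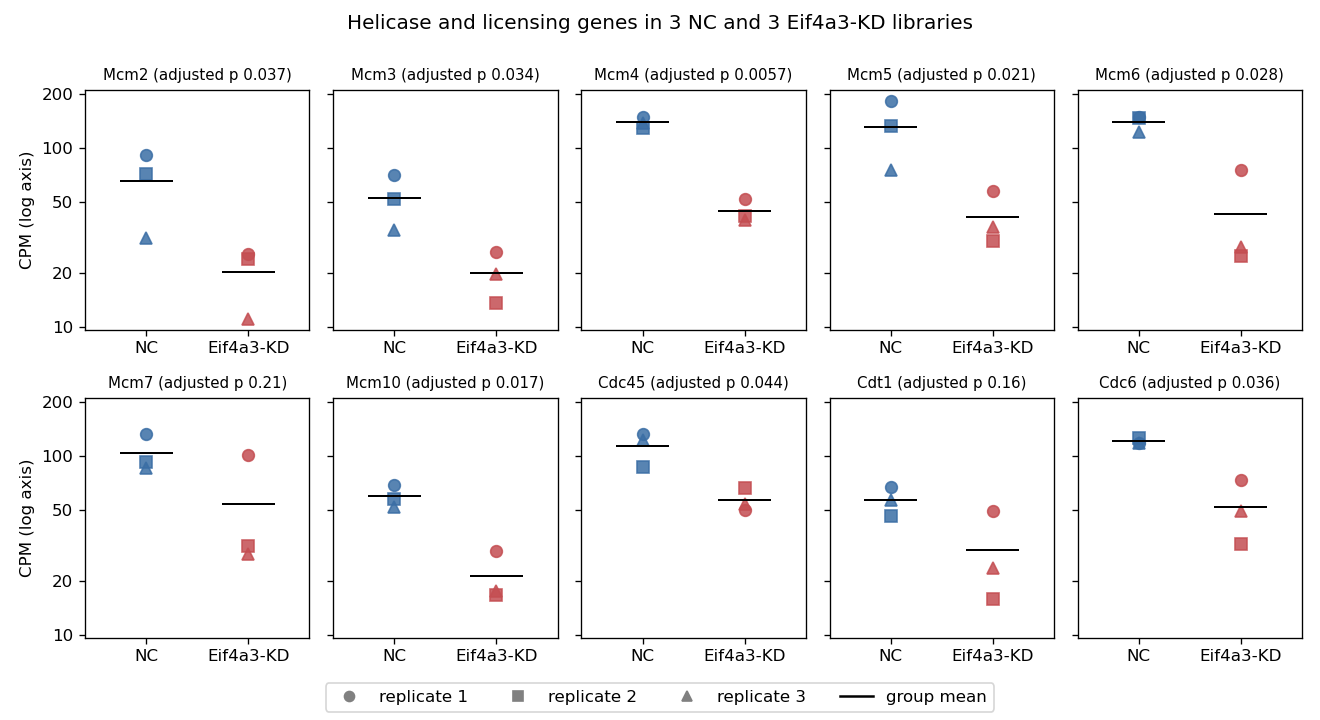
Level of each of the 10 genes (CPM, log axis) in the 3 NC libraries (blue) and the 3 Eif4a3-KD libraries (red), with marker shapes for replicates and a bar at each group mean. The groups do not overlap for 8 genes, while in Mcm7 and Cdt1 knockdown replicate 1 (101.5 and 49.3 CPM) lies within the NC range.

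Among the ring subunits, Mcm4 (ENSMUSG00000022673, chr16:15623897-15637400, minus strand) had the tightest values of the 6 in both groups. With Mcm6 and Mcm7 it forms the subcomplex that has helicase activity of its own. Its level was 150.4, 131 and 138.5 CPM in the NC libraries and 52.06, 41.6 and 39.8 CPM in the knockdown libraries. All knockdown libraries sat between 28.5% and 37.2% of the NC mean, and the gap between the groups was wider than the spread within either. The fitted log2 fold change was -1.65 with a standard error of 0.27 (adjusted p 0.00566 by edgeR's quasi-likelihood test with Benjamini-Hochberg adjustment). It was the only member called in all 15 alternatives run.

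Mcm6 (ENSMUSG00000026355, chr1:128331590-128359664, minus strand) had close NC values and a wide spread in the knockdown. It is the neighbour of Mcm2 and Mcm4 in the ring. Its level was 148.6, 148.1 and 122.5 CPM in the controls and 75.7, 24.96 and 28.05 CPM in the knockdown. Knockdown replicate 1 kept 54.2% of the NC mean and the other 2 kept 17.9% and 20.1%, so the groups did not overlap while the knockdown libraries were far apart from each other. The mean went from 139.7 ± 14.9 to 42.9 ± 28.4 CPM (SD, n = 3), a log2 fold change of -1.70 ± 0.42 (standard error, adjusted p 0.028 by edgeR). Without knockdown replicate 1 it was -2.44 (adjusted p 0.00293 by edgeR). Of the 6 fits that left out 1 library, only this 1 called Mcm6 (adjusted p up to 0.0904 by edgeR).

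Mcm7 (ENSMUSG00000029730, chr5:138164583-138172422, minus strand) did not pass. Its level was 133, 92.1 and 85.8 CPM in the controls and 101.5, 31.1 and 28.2 CPM in the knockdown. Knockdown replicate 1 stood at 97.9% of the NC mean, above 2 of the 3 NC libraries, and the other 2 stood at 30.02% and 27.2%. The log2 fold change was -0.95 with a standard error of 0.48 (adjusted p 0.21 by edgeR). Without knockdown replicate 1 it was -1.85 (adjusted p 0.0108 by edgeR). Of the 6 fits that left out 1 library, only this 1 called Mcm7 (adjusted p up to 0.448 by edgeR). Exons of other genes cover 12.6% of the exonic length of Mcm7, namely Ap4m1 and Cops6 on the opposite strand and the hairpins of Mir25 and Mir93, so pairs from those stretches cannot be assigned to 1 gene.

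The other side of the ring holds Mcm2, Mcm5 and Mcm3, and the contact of Mcm2 with Mcm5 is the gate through which DNA enters. These 3 subunits had a wide spread among the NC libraries, with coefficients of variation of 47.3% for Mcm2, 41.1% for Mcm5 and 33.9% for Mcm3, against 7.17% for Mcm4 and 10.7% for Mcm6. In all 3 of them NC replicate 1 was highest and NC replicate 3 lowest. Mcm6, Mcm7 and Mcm10 had the same order. Mcm2 (ENSMUSG00000002870, chr6:88883474-88898780, minus strand) was at 91.8, 72.05 and 31.4 CPM in the controls and at 25.6, 23.9 and 11.1 CPM in the knockdown. NC replicate 3 was thus close to the highest knockdown library. It fell by 1.69 ± 0.45 on the log2 scale (adjusted p 0.0366 by edgeR). Its most counted block is also its last, block 14. In the fit of most counted blocks the log2 fold change was -0.93 (adjusted p 0.076 by edgeR). In the fit of last blocks the same counts gave -0.88 (adjusted p 0.0794 by edgeR), so the fall was smaller and not called in that block.

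Mcm5 (ENSMUSG00000005410, chr8:75109569-75128439, plus strand), whose upstream sequence is printed above, was at 183, 134 and 75.7 CPM across NC and at 57.5, 30.3 and 36.1 CPM in the knockdown. The groups did not overlap, though NC replicate 1 stood far above NC replicate 3. The log2 fold change was -1.66 ± 0.39 (adjusted p 0.0213 by edgeR). Mcm3 (ENSMUSG00000041859, chr1:20802968-20820312, minus strand) was at 70.3, 51.9 and 34.9 CPM in the NC libraries and at 26.3, 13.6 and 19.8 CPM in the knockdown. Its log2 fold change was -1.39 ± 0.37 (adjusted p 0.0342 by edgeR).

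Markers of the outer cell layer also differed among the NC libraries, in more than 1 order. The trophectoderm keratin Krt18 was at 2129, 2064 and 1031 CPM in the controls and at 755, 408 and 173 CPM in the knockdown, and Krt8 at 2633, 1789 and 719 CPM in NC. NC replicate 3 was lowest for these keratins, Cdx2 and Tfap2c. It was also lowest for Mcm2, Mcm3, Mcm5, Mcm6, Mcm7, Mcm10 and, narrowly, Cdc6. Gata3 (517, 256 and 262 CPM), Eomes (42.7, 18.8 and 27.04 CPM) and Elf5 (2.88, 0.266 and 1.25 CPM) were lowest in NC replicate 2. So were Mcm4, Cdc45 and Cdt1. The part of the make-up of the pools in these levels was not tested.

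Summed over Mcm2 to Mcm7, the ring genes had 777, 629 and 489 CPM in the controls and 339, 165 and 163 CPM in the knockdown. Every knockdown library lay below every NC library, and knockdown replicate 1 lay nearer to NC than the other 2. This replicate had the highest level of the 3 for 9 of the 10 members, the exception being Cdc45.

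Cdc6 (ENSMUSG00000017499, chr11:98907801-98923940, plus strand) is the ATPase that joins ORC to recruit the ring. It had the narrowest NC values of the 10, at 118, 126 and 118 CPM, and was at 73.1, 32.2 and 49.3 CPM in the knockdown. The 3 knockdown libraries kept 60.5%, 26.7% and 40.8% of the NC mean, so all of them were below NC by far more than the NC spread of 4.62 CPM. It fell by 1.23 ± 0.33 on the log2 scale (adjusted p 0.0362 by edgeR).

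Cdt1 (ENSMUSG00000006585, chr8:122568015-122573554, plus strand) brings the ring to ORC and Cdc6 and is the step that geminin inhibits. It was at 67.0, 45.95 and 56.6 CPM across NC and at 49.3, 15.9 and 23.7 CPM in the knockdown. Replicate 1 of the knockdown, at 87.3% of the NC mean, lay above NC replicate 2, and the other 2 lay below all NC libraries. The log2 fold change was -0.93 with a standard error of 0.41 (adjusted p 0.159 by edgeR). Without knockdown replicate 1 it was -1.56 (adjusted p 0.0201 by edgeR). Of the 6 fits that left out 1 library, only this 1 called Cdt1 (adjusted p up to 0.359 by edgeR). Geminin itself (Gmnn) was at 322 ± 45.3 CPM in the controls and 362 ± 101 CPM in the knockdown (SD, n = 3, adjusted p 0.754 by edgeR).

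Cdc45 (ENSMUSG00000000028, chr16:18780447-18811987, minus strand) binds the loaded ring and, with GINS, makes it an active helicase. It was at 133, 86.5 and 122.7 CPM in the controls and at 50.05, 65.96 and 53.7 CPM in the knockdown. Here knockdown replicate 2, not replicate 1, was the highest, and the knockdown libraries were close together at 43.9% to 57.9% of the NC mean. The log2 fold change was -1.01 ± 0.29 (adjusted p 0.044 by edgeR), the smallest fall among the 8 called members. The call was lost in each of the 6 fits that left out 1 library (adjusted p 0.0633 to 0.126 by edgeR). Ufd1, on the opposite strand, covers 5.96% of its exonic length.

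Mcm10 (ENSMUSG00000026669, chr2:4989714-5012791, minus strand) is not part of the ring despite its name and acts when the assembled helicase starts to move. It was at 69.1, 57.8 and 52.04 CPM in the NC libraries and at 29.5, 16.7 and 17.6 CPM in the knockdown, with no overlap. It fell by 1.48 ± 0.32 on the log2 scale (adjusted p 0.0168 by edgeR).

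Over the 10 members the median log2 fold change was -1.44, and over all 15619 genes tested it was 0.03. The 8 called members did not overlap between the groups, a pattern seen on the lower side in 16.4% and in either direction in 36.4% of all genes tested. For each of these 8 an exact two-sided permutation test gave p = 0.1, the smallest that 3 libraries against 3 allow. The corresponding exact p was 0.2 for Cdt1 and 0.3 for Mcm7. The raw counts behind these values ranged from 184 (Mcm2, knockdown replicate 3) to 3681 (Mcm5, NC replicate 1). How many members passed depended on single libraries. Leaving out NC replicate 1, NC replicate 2, knockdown replicate 2 or knockdown replicate 3 left 1 called member, Mcm4. Leaving out NC replicate 3 left 5, and leaving out knockdown replicate 1 gave 9, all but Cdc45. All 10 log2 fold changes were negative as reported and in all 15 alternatives.

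**Figure D2:**
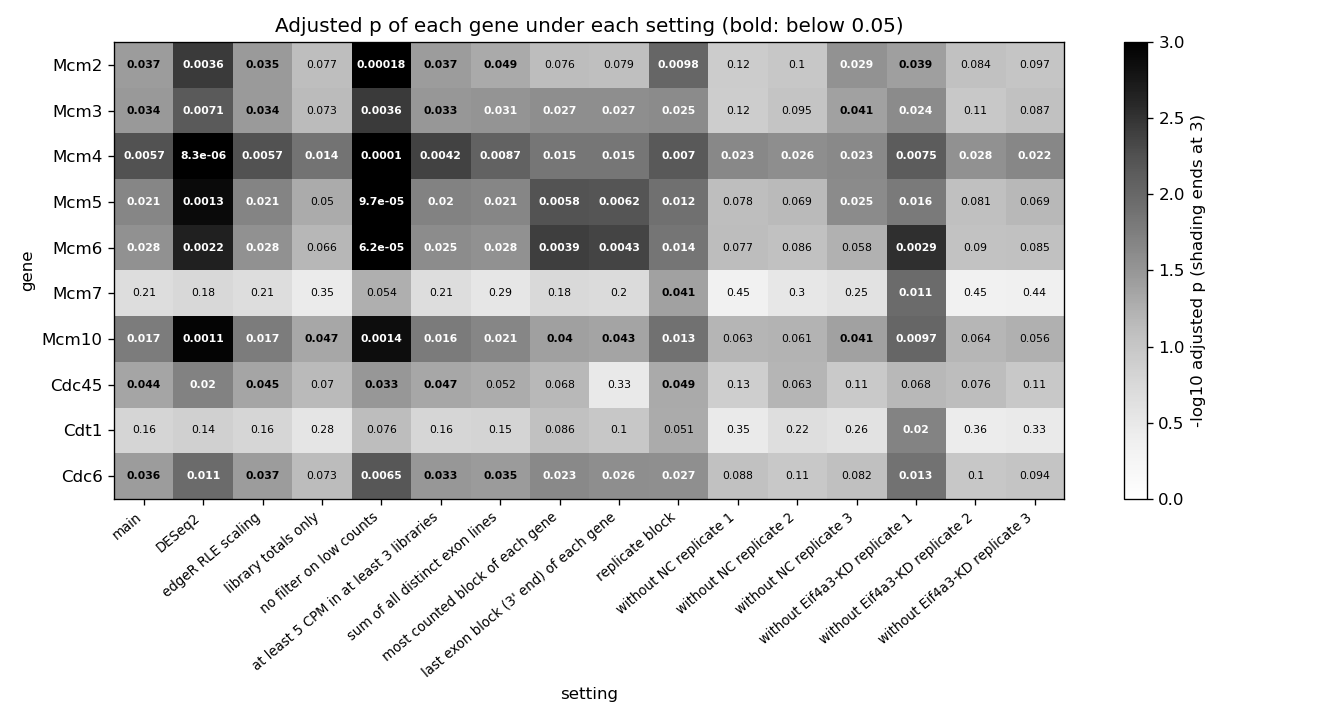
Adjusted p of each member (rows) as reported (first column) and in 15 alternatives (other columns), with darker shading for smaller p and bold print below 0.05. Mcm4 is bold in every column, Mcm7 only with the replicate block and without knockdown replicate 1, and Cdt1 only without knockdown replicate 1.

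Ring subunits assemble in equal numbers, so their transcripts were also compared per length, as CPM per kilobase of the transcript with the longest coding sequence. On this scale the NC means ran from 51.2 ± 5.53 for Mcm6 through 38.95 ± 2.79 for Mcm4, 38.7 ± 15.9 for Mcm5 and 36.05 ± 9.31 for Mcm7 to 20.2 ± 9.90 for Mcm2 and 17.9 ± 6.10 for Mcm3 (SD, n = 3). Mcm4, Mcm5 and Mcm7 did not differ from each other beyond their spread, nor did Mcm2 from Mcm3. In the knockdown Mcm7 was at 18.6 ± 14.8, Mcm6 at 15.6 ± 9.81, Mcm4 at 12.4 ± 1.85, Mcm5 at 12.2 ± 4.24, Mcm3 at 6.92 ± 2.11 and Mcm2 at 6.13 ± 2.46. Mcm3 and Mcm2 were thus the lowest per length in both groups, and the other 4 overlapped in the knockdown.

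Outside the ring, Cdc45 had the highest NC mean per length, 55.2 ± 11.9, followed by Cdc6 at 45.7 ± 1.77 and Cdt1 at 34.6 ± 7.11, and Mcm10 had the lowest of all members, 12.8 ± 1.87. In the knockdown these were 27.5 ± 3.75, 19.5 ± 7.64, 17.8 ± 10.7 and 4.54 ± 1.58. Cdc45 remained at the top and Mcm10 at the bottom, while the NC libraries of Cdc45, Mcm6 and Cdc6 overlapped each other. Within the ring the share of Mcm7 in the summed level per length of Mcm2 to Mcm7 was 18.7%, 15.7% and 18.99% in NC and 32.1%, 20.07% and 18.6% in the knockdown, so the share was high in knockdown replicate 1 and near the NC range in the others. Reads were not evenly spread along several of these transcripts, as shown further on, and a level per length carries that unevenness. A pair that spans a junction is also counted in each exon, so a transcript with more exons per length can read higher. The Cdc45 transcript has 20 exons in 2143 bases, and that of Mcm10 has 20 in 4867. The part of this in the order of levels was not tested.

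**Figure D3:**
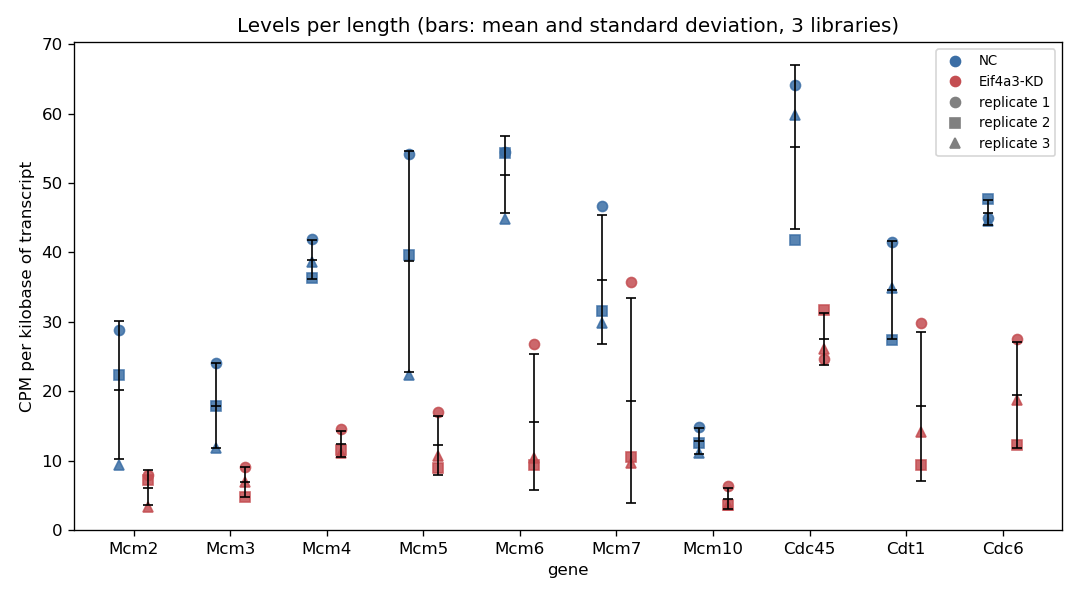
Level of each member per kilobase of transcript (CPM per kilobase, linear axis from 0) in NC (blue) and Eif4a3-KD (red) libraries, with bars for mean and SD over 3 libraries. Cdc45 (55.2 in NC) and Mcm6 (51.2) are the highest in NC, and Mcm10, Mcm3 and Mcm2 the lowest in both groups.

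Because Eif4a3 sits on spliced mRNA near exon junctions, the counts were also read block by block. The 10 members have 151 merged exon blocks, of which 140 passed the filter. The knockdown mean was below the NC mean in all 140. In 91 of them the groups did not overlap, and over all 67890 blocks tested 17.2% were lower without overlap. Blocks of a gene come from the same libraries and share read pairs across junctions. They restate the falls of the 10 genes and are not separate observations. All 16 blocks of Mcm4 and all 12 tested blocks of Cdc6 were among the 91, along with 14 of 16 in Mcm6, 14 of 17 in Cdc45, 13 of 17 in Mcm10 and 9 of 16 in Mcm3. The fewest were in Mcm5 with 5 of 16, Mcm7 with 4 of 14, Mcm2 with 3 of 9 and Cdt1 with 1 of 7. The last block of Mcm4 (chr16:15623897-15624769), which holds its 3′ end, was at 15.3, 23.6 and 17.3 CPM in the controls and at 5.76, 9.69 and 5.42 CPM in the knockdown. The first (chr16:15637111-15637400) was at 2.59, 2.46 and 2.95 CPM across NC and at 0.703, 1.27 and 1.62 CPM in the knockdown. Both ends of the transcript were thus lower in every knockdown library.

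Skipping or inclusion of a whole block, or a change in the use of an end, can show as a block that moved more or less than the rest of its gene. Splice sites inside a block, introns not annotated as exon and the use of junctions were not measured. No member block did so by edgeR's diffSpliceDGE. None of the 140 had an adjusted p under 0.05 and none an unadjusted p under 0.05, the smallest being 0.107 (Mcm2, block 6), while 0.168% of all blocks and 2.95% of all genes tested for usage were called. The log2 differences in usage nevertheless ran from -1.30 (that block of Mcm2) to 0.86 (Mcm7, block 1), so changes of such size in single blocks were not detectable with these libraries. In Mcm6 the block at chr1:128353460-128353570 was at 4.53, 4.58 and 4.40 CPM in the NC libraries and at 4.64, 0.787 and 1.08 CPM in the knockdown. Here knockdown replicate 1 was at the NC level and the other 2 were far below it.

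**Figure D4:**
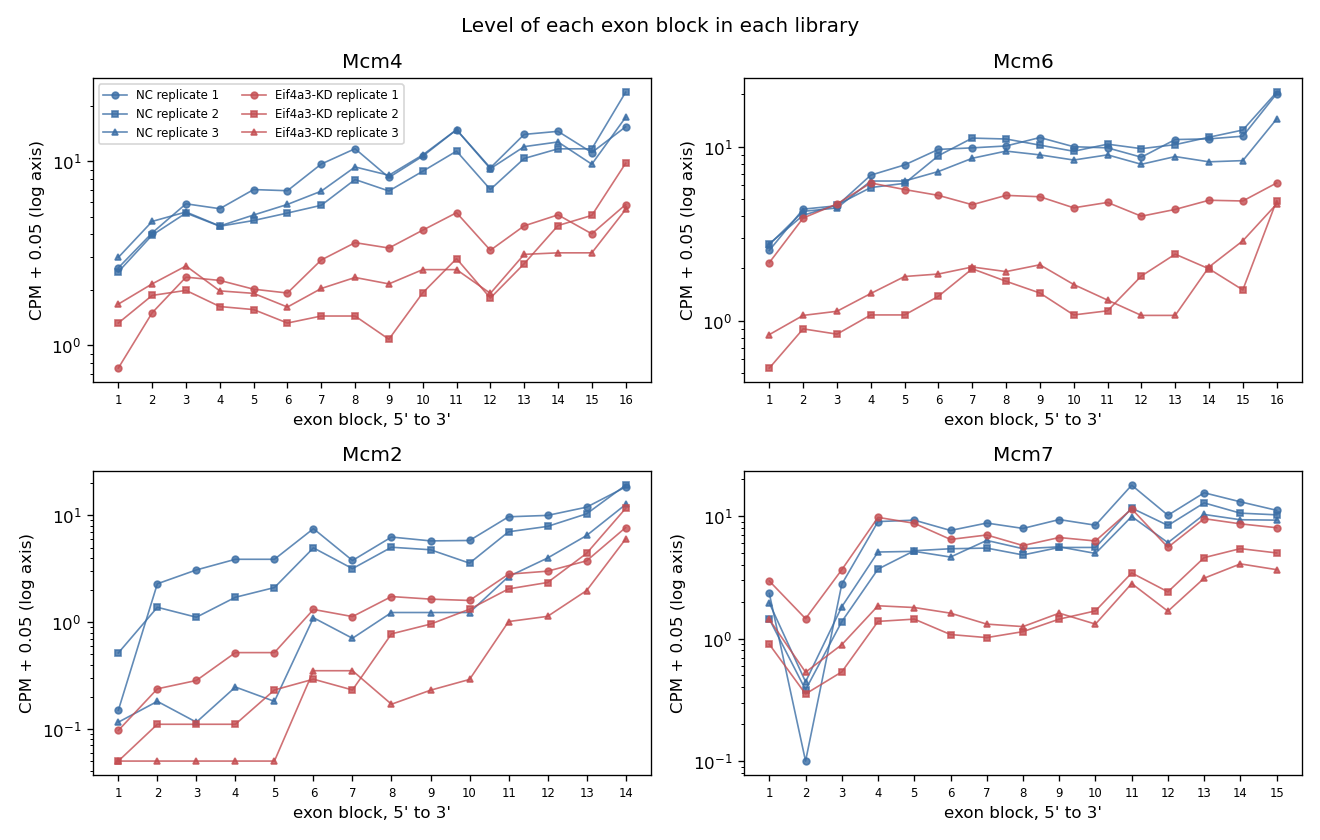
Level of each merged exon block (CPM + 0.05, log axis) from the 5′ to the 3′ end of Mcm4, Mcm6, Mcm2 and Mcm7 in each NC (blue) and Eif4a3-KD (red) library. The libraries of Mcm4 stay apart over all 16 blocks, knockdown replicate 1 rejoins NC near the 5′ end of Mcm6 and over most of Mcm7, and the 5′ blocks of Mcm2 are low in NC replicate 3 and at 0 in knockdown replicate 3.

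Coverage along the transcript was checked as the share of a member's counts in its 5′ blocks, taken whole, up to about 50% of its exonic length. Where a block is long, the part can differ from that length. For Mcm2 the part was its first 6 blocks. For Cdc45 it was block 1 alone, 1880 of 3506 bases. Its share was 3.14%, 3.07% and 4.22% in NC and 5.34%, 2.94% and 4.03% in the knockdown. The median share over 5993 genes was 46.6% to 49.3% in the NC libraries and 47.6% to 53.6% in the knockdown. For Mcm4 the share was 47.7%, 42.2% and 45.7% in NC and 46.9%, 36.2% and 51.9% in the knockdown, with the groups overlapping. Mcm2 had the lowest share of the ring subunits, at 22.3%, 15.9% and 5.22% in NC and 10.4%, 2.53% and 2.72% in the knockdown (exact two-sided permutation p 0.2, 1 after Benjamini-Hochberg adjustment over the members). NC replicate 3, the NC library with the least Mcm2, was also the NC library with the smallest 5′ share. The first 5 blocks of Mcm2 held no count in knockdown replicate 3. Block 6 of Mcm2 (chr6:88888422-88891915) spans 3494 of the 6956 exonic bases, because an annotated transcript retains introns there. The part used for Mcm2 includes this block and so holds more than 50% of its length. None of the 10 members had groups without overlap. With 33% of the length in place of 50%, Mcm7 did, at 3.96 ± 0.723% in NC and 7.55 ± 2.18% in the knockdown (exact two-sided permutation p 0.1, the smallest possible, adjusted p 0.8).

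The partners of the members were followed through 79 genes in 8 lists, of which 12 fell and 3 rose. Over all genes tested 5.56% fell and 7.52% rose, so lists this short can hold no call without differing from other genes. ORC, the platform on which licensing takes place, had 0 of 7 subunits and partners called, and a median log2 fold change of 0.07. Orc1, whose match is printed above, was at 44.8, 37.5 and 45.7 CPM in the controls. In the knockdown it was at 38.6, 37.9 and 17.995 CPM (adjusted p 0.427 by edgeR). Orc2 had a log2 fold change of 0.21 (adjusted p 0.645), Orc3 0.07 (0.898), Orc4 0.49 (0.332), Orc5 -0.31 (0.463) and Orc6 -0.27 (0.561). At an unadjusted p under 0.05 none of the 7 passed either, and none of Orc1 to Orc6 was called in any of the 15 alternatives, DESeq2 among them. The signs of Orc2 and Orc3 changed under some alternatives. The MCM-related genes outside the ring were likewise not called, in 0 of 4 cases. Mcm8 and Mcm9, which form a separate helicase used in recombination, had log2 fold changes of -0.26 (adjusted p 0.598) and 0.26 (0.58). Mcmbp, which binds ring subunits outside chromatin, had -0.17 (adjusted p 0.74).

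The list of licensing control had 14 tested genes, of which 4 fell and none rose, with a median log2 fold change of -0.98. Cdk2, the S-phase kinase, was at 138, 93.7 and 101 CPM across NC and at 31.9, 43.07 and 27.1 CPM in the knockdown. Its log2 fold change was -1.71 ± 0.31 (adjusted p 0.00804 by edgeR). Kat7, the acetyltransferase that opens origin chromatin for licensing, was at 110, 82.7 and 80.06 CPM in the NC libraries and at 38.9, 23.6 and 25.2 CPM in the knockdown, with -1.63 ± 0.31 (adjusted p 0.0101). In the ubiquitin ligase that destroys Cdt1 in S phase, the scaffold Cul4b fell from 118 ± 5.55 to 50.3 ± 7.25 CPM (SD, n = 3, adjusted p 0.0153 by edgeR) and the adaptor Ddb1 from 284 ± 81.5 to 95.3 ± 41.7 CPM (adjusted p 0.0228 by edgeR). The other scaffold Cul4a (20.6 ± 10.3 and 46.8 ± 26.4 CPM, adjusted p 0.128 by edgeR) and the substrate receptor Dtl (39.1 ± 5.33 and 40.7 ± 3.91 CPM, adjusted p 0.911 by edgeR) did not pass. Ddb1, Cul4a and Dtl were named after their values were seen.

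The GINS complex completes the active helicase beside Cdc45 and the ring, and its subunits differed in direction. Gins2 was at 61.7, 56.5 and 78.3 CPM in the controls and at 26.5, 29.98 and 22.7 CPM in the knockdown, a log2 fold change of -1.31 ± 0.29 (adjusted p 0.0168 by edgeR). Gins4 was at 161, 188 and 146 CPM across NC and at 296, 266 and 413 CPM in the knockdown, higher in every library, with 0.98 ± 0.29 (adjusted p 0.0492 by edgeR). That call was lost in each of the 6 fits that left out 1 library. Gins1 (-0.27, adjusted p 0.611) and Gins3 (-0.49, adjusted p 0.399) did not pass. The subunits with a call therefore lay on opposite sides.

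Among the other firing factors, Donson, which helps bring GINS to the ring, was at 20.2, 23.6 and 25.99 CPM in the NC libraries and at 7.26, 6.72 and 5.96 CPM in the knockdown. Its log2 fold change of -1.81 ± 0.32 (adjusted p 0.00822 by edgeR) was kept in all fits that left out 1 library. The kinase Cdc7 (22.2 ± 3.25 and 15.9 ± 0.258 CPM) and its activator Dbf4 (75.4 ± 9.27 and 93.5 ± 9.57 CPM, SD, n = 3) phosphorylate the loaded ring. They did not pass (adjusted p 0.308 and 0.457 by edgeR). The whole firing list had 1 gene higher and 2 lower of 11.

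Of 14 partners at the fork, 5 fell and none rose. Rpa1 and Rpa3, the large and small subunits of the complex that coats single strands, went from 70.5 ± 7.01 to 24.8 ± 6.90 CPM (adjusted p 0.0127) and from 57.98 ± 5.49 to 21.8 ± 5.92 CPM (adjusted p 0.0157). The middle subunit Rpa2 was at 249.1 ± 22.9 and 244.2 ± 46.6 CPM (adjusted p 0.956 by edgeR). Wdhd1, which ties the helicase to polymerase alpha, went from 16.9 ± 4.004 to 4.82 ± 1.26 CPM (adjusted p 0.0153). The clamp loader subunit Rfc1 and the loader partner Chtf18 were the other 2 that fell. The sliding clamp Pcna, a standard marker of proliferating cells, was at 206 ± 26.1 and 232 ± 33.4 CPM (adjusted p 0.718 by edgeR). Rpa2, Rfc1, Chtf18 and Pcna were named after their values were seen.

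Of 13 E2F and pocket protein genes, 1 rose and 1 fell. Tfdp2, a dimer partner of E2F proteins, went from 23.2 ± 5.71 to 56.5 ± 14.06 CPM (adjusted p 0.0294), and E2f8, a repressing member, from 5.47 ± 1.28 to 1.43 ± 0.965 CPM (adjusted p 0.0491). Rbl1, the pocket protein p107, had -0.91 (adjusted p 0.117 by edgeR). Of 6 genes for unloading the helicase at the end of replication, Lrr1, the receptor of the ligase that marks Mcm7, rose from 108, 214 and 186 CPM in the controls to 296, 499 and 887 CPM in the knockdown. Its log2 fold change was 1.73 ± 0.43 (adjusted p 0.0283 by edgeR). The calls of Tfdp2, E2f8 and Lrr1 were each kept in 1 of the 6 fits that left out 1 library (adjusted p up to 0.105, 0.127 and 0.0879 by edgeR). The extraction factors Vcp (-1.01, adjusted p 0.122) and Nploc4 (-0.72, adjusted p 0.192) did not pass. None of 10 replication checkpoint genes was called, 1 had an unadjusted p under 0.05 (Hus1), and DESeq2 called none of the 3 named here. The nearest to the threshold were Hus1 (0.86, adjusted p 0.092), Atr (-0.69, adjusted p 0.209) and Rad17 (0.29, adjusted p 0.49 by edgeR).

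**Figure D5:**
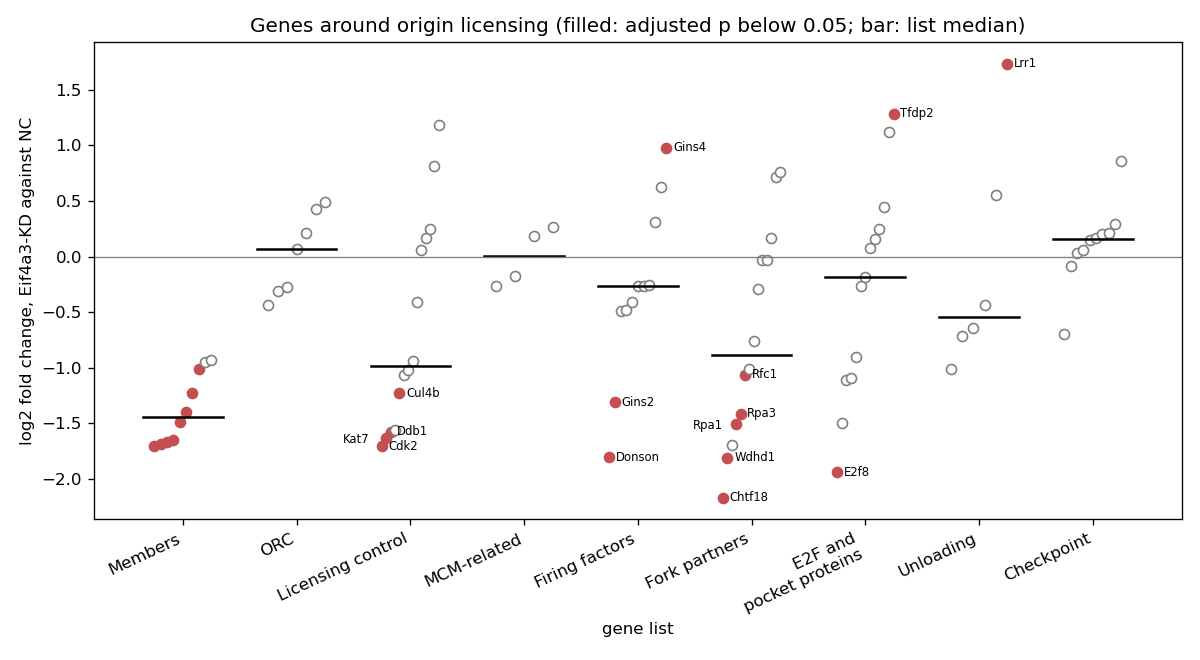
Fitted log2 fold change (knockdown against NC) of each tested gene in the member list and 8 pathway lists, filled where the adjusted p was below 0.05, with a bar at the list median. The members' median is -1.44 and that of ORC 0.07, and the filled circles of the pathway lists are 12 below 0 and 3 above.

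Profiles across the 6 libraries were compared with the mean profile of Mcm2 to Mcm7 among 7471 genes with a mean of at least 10 CPM. Likeness was the Euclidean distance between log2(CPM + 1) values centred on each gene's mean. The 5 nearest genes outside the ring were Lncenc1 (0.29), a long noncoding RNA of embryonic stem cells, Pard6b (0.33), a cell polarity protein, Racgap1 (0.33), a cytokinesis factor, Mcm10 (0.35) and Atp5a1 (0.37), a subunit of ATP synthase. Racgap1 was at 198, 129 and 96.9 CPM in the controls and at 73.7, 41.8 and 43.99 CPM in the knockdown. Like the mean profile of the ring, it was highest in replicate 1 of each group. Cdc6 ranked 156th, Cdt1 335th and Cdc45 1114th, so Cdc45 was the member least like the ring in this measure.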

How the data were processed

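Poly(A) RNA of pooled mouse embryos was sequenced with Smart-seq2 as paired reads. The authors' deposited table holds raw counts of read pairs per annotated exon line and library, made with featureCounts 2.0.1 per the file headers, with every pair counted in each line it overlapped and strand setting 2. Reads were trimmed with fastp 0.20.1 and aligned with STAR 2.7.6a to GRCm38, per the submitters' processing notes. Smart-seq2 does not mark the strand, so pairs of the other orientation are missing from the counts, and reads of overlapping genes cannot be told apart.

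The planned test assumed counts per gene. The 842173 lines (449500 distinct exons) were therefore merged into 291424 blocks, the most counted line of each block was kept, and blocks were summed per gene, so a pair that spans a junction counts more than once. Of 55378 genes, 55102 had a symbol and 15619 passed filterByExpr. Groups were compared with edgeR 4.0.16 under R 4.3.3 (TMM, glmQLFit, glmQLFTest, two-sided), with Benjamini-Hochberg adjustment over all genes tested and a threshold of 0.05. Standard errors were derived from the F statistic. Block usage was tested with diffSpliceDGE over 67890 blocks of 9494 genes, and shares with exact permutation tests. The tests were tried on simulated data. Alternatives were DESeq2 1.42.0, other scalings and filters, other ways to sum exon lines, a replicate block and the omission of each library. Lengths came from GENCODE transcripts matched exon by exon.

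The members and lists were chosen with earlier results of these data known, so no p is adjusted over a list alone. Named genes were the 10 members, up to 3 genes per pathway list with the smallest p, the direct partners, and the 5 nearest profiles. Hrob was not matched and is not analysed here.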

Additional observations from a re-analysis of the deposited data

How the results depend on the processing

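All 10 members had a negative log2 fold change in every alternative run. Of 150 refits of single members, 104 stayed on the same side of the threshold, 43 lost the call, 3 gained it and none changed sign. The number of members lower was 8 as reported and 8 with DESeq2, edgeR's RLE scaling, no filter or a filter of 5 CPM, 7 with all exon lines summed, and 6 with the most counted or the last block of each gene. It was 2 (Mcm4 and Mcm10) when libraries were scaled by their totals alone, and the cause was not tested. The most counted block is also the last block in all members but Mcm7 and Cdc45, so those settings share most of their counts. Leaving out 1 library gave 1 to 9 members, 550 to 1224 genes higher, 336 to 1130 genes lower, and 0 to 3 higher and 6 to 15 lower among the pathway genes. Fewer libraries enter these fits.

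Over all genes, 1174 were higher and 869 lower as reported, 1899 and 1415 with DESeq2, 2089 and 1518 with no filter, and 548 were lower with library totals alone. The median log2 fold change of all genes was 0.03 as reported, 0.18 with DESeq2 and 0.17 with no filter, where more genes were tested. Eif4a3 had -1.17 in its last block (adjusted p 0.113 by edgeR, chosen after the data were seen), and its adjusted p ranged up to that value. Genes not called changed sign in 8 refits: Mcm8 to 0.41 and Orc2 to -0.070 with the most counted block, Mcm8 to 0.21, Orc2 to -0.017 and Orc3 to -0.18 with the last block, and Orc3 to -0.11, -0.016 and -0.038 without NC replicate 1, NC replicate 2 and knockdown replicate 2 (-0.11 to 0.28 over the 6 omissions). The count of members without overlap in their 5′ share went from 0 to 1 with the shorter part.

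The replicate numbers name a library and are not said to mark a shared source. The deviations of libraries with the same number correlated at 0.37, 0.00 and 0.13 across genes. Those of libraries with unlike numbers correlated at -0.30 to 0.27. These values do not settle whether the numbers pair the libraries. The reported fit used no pairing because the labels state none. With the replicate block 9 members were lower (Mcm7 gained, adjusted p 0.0414 by edgeR), 5 pathway genes were higher and 17 lower. Depth limits single blocks most, and the lowest member count was 184.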
